A study of Mus musculus with 8 samples.

Results

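The genes described here are 30 genes of cholesterol and fatty acid synthesis, of its control by the sterol regulatory element-binding proteins (SREBPs) and of sterol transport. The count files listed 52550 genes. The 30 were chosen by name from knowledge of the pathway, with earlier results of these data known. Their symbols were matched to the Ensembl gene identifiers of the files. Each of the 30 had 1 identifier, and all 30 passed the filter on low counts that left 20749 genes for testing. Acat2, Hmgcs1, Mvk, Pmvk, Mvd, Idi1 and Fdps belong to the mevalonate arm (7 genes). Fdft1, Sqle, Lss, Cyp51, Tm7sf2, Msmo1, Nsdhl, Hsd17b7, Ebp, Sc5d and Dhcr7 carry the route through squalene to cholesterol (11 genes). Srebf1, Srebf2, Scap, Insig1 and Insig2 encode the SREBPs and the proteins that escort or hold them (5 genes). Acly, Acaca, Fasn, Elovl6, Scd1 and Scd2 make, lengthen and desaturate fatty acids (6 genes), and Stard4 carries sterol between membranes.

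SREBPs are made as precursors in the membrane of the endoplasmic reticulum, where Scap binds them. When membrane sterol is low, Scap takes them to the Golgi, where they are cut, and the freed part enters the nucleus and switches on genes of sterol and fatty acid synthesis. When sterol is plentiful, Insig1 and Insig2 hold Scap in the endoplasmic reticulum. Serum brings cholesterol and fatty acids to cultured cells, and cells in lipid-poor medium are known to raise the transcripts of this pathway.

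The samples were mouse embryonic stem cells (ESCs) at passage 3 on gelatin, either control cells or cells without Dax1 (Nr0b1, an orphan nuclear receptor), each in 2 media. LIF/serum was DMEM with 15% fetal bovine serum and 10 ng/ml of the cytokine LIF. 2i/LIF was the serum-free medium N2B27 with 1 µM PD0325901, a MEK inhibitor, 3 µM CHIR99021, a GSK3 inhibitor, and 10 ng/ml LIF. The media thus differed in serum, basal medium and both inhibitors at the same time, and an effect of serum lipid cannot be told apart from an effect of the rest. The Dax1KO cells were made with lentiviral CRISPR/Cas9 and zeocin selection, grown from picked colonies and maintained in 2i/LIF. The study describes them as not sustainable in LIF/serum over passages. It also reports that after the move to LIF/serum they looked differentiated and died in large numbers. Apoptosis was raised there even in the first passage. The part of differentiation and cell death in the results below was not tested. The study took a single colony on to its functional experiments, and the labels do not say whether that clone was sequenced or what vector, if any, the control cells carried.

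Each of the 4 groups had 2 mRNA libraries, and the 8 libraries held 35911384 to 37286251 counts. Nr0b1 had 5095 and 4689 counts in control cells in LIF/serum and 14 and 6 in Dax1KO cells in LIF/serum. In 2i/LIF it had 456 and 300 counts in control cells and 0 in both Dax1KO libraries. The summed level of 6 ESC markers lay between 122010 and 156020 normalized counts in all libraries. Normalized counts are counts brought to a common library size with TMM factors. Nothing states that the 2 libraries of a group came from separate cultures, so P values measure the spread between these libraries, which may be technical. In bulk RNA, fewer cells of a type and less RNA per cell cannot be told apart.

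Differences were tested over the 20749 genes with edgeR's quasi-likelihood test and Benjamini-Hochberg adjustment. A differentially expressed gene (DEG) had to reach both an adjusted P no greater than 0.05 and a change of 1.2-fold or more. Log2 fold changes are given with their standard error. Their median over all genes tested lay between -0.01 and 0.02 in the comparisons below, so that a list can be read against 0. Of the ESC markers, Nanog and Klf4 were higher by 1.39 and 0.74 in 2i/LIF in control cells and Pou5f1 differed by -0.68, so that their steady sum holds changes in both directions.

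Control cells in LIF/serum held the least RNA of these genes. Their group mean was the lowest of the 4 in 27 of the 30 members, against 32.5% of all genes tested. The exceptions were Acat2 and Idi1, which were lowest in Dax1KO cells in 2i/LIF, and Ebp, which was lowest in Dax1KO cells in LIF/serum. In 18 of the 30 members both control LIF/serum libraries lay below the other 6 libraries, which held for 16.6% of all genes tested. Together the 30 genes took 0.372% and 0.344% of the counts in control LIF/serum, and 0.537% and 0.526% in Dax1KO LIF/serum. In 2i/LIF they took 0.690% and 0.746% in control cells and 0.643% and 0.761% in Dax1KO cells. The media did not overlap in either genotype, and Dax1KO LIF/serum lay between control LIF/serum and 2i/LIF. Scd1 and Scd2 carried much of this. In Dax1KO cells Scd1 averaged 27125 normalized counts in 2i/LIF and 7025 in LIF/serum, and Scd2 averaged 55185 and 26735. The position of the sum is thus not that of each member.

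**Figure D1:**
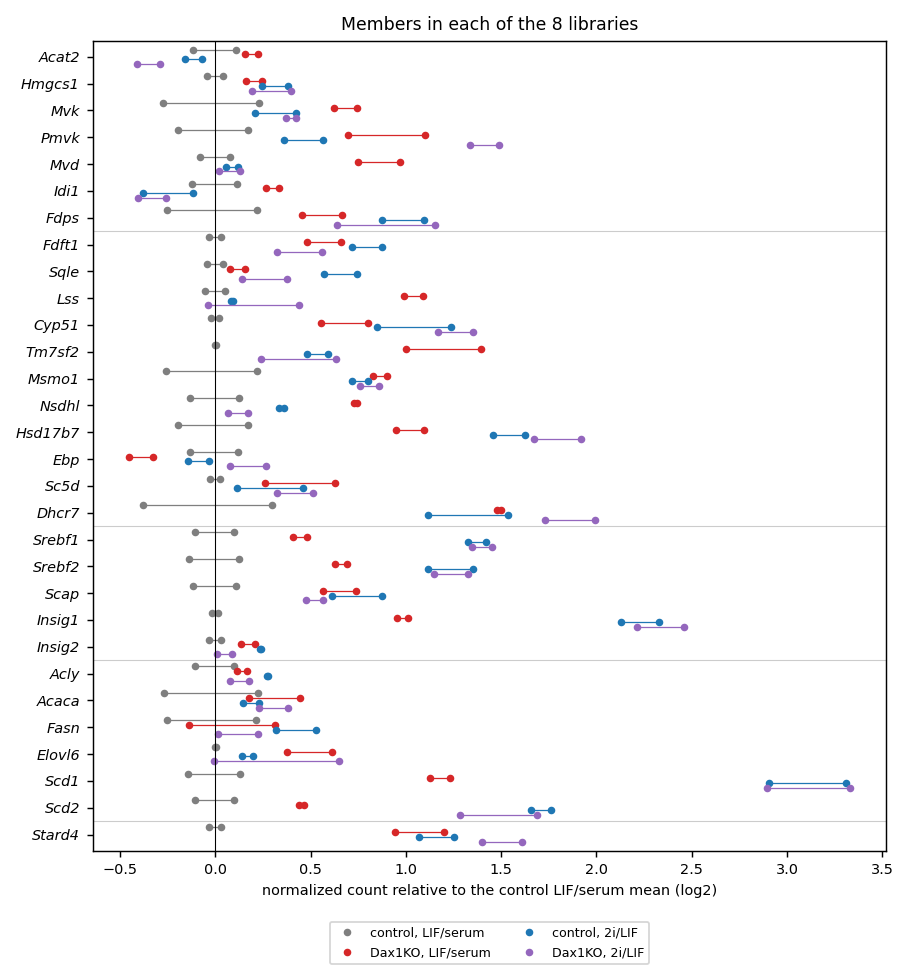
Normalized count of each of the 30 genes in each of the 8 libraries, as the log2 ratio to the mean of the control LIF/serum libraries (x axis, log2 scale). Each point is 1 library, a line joins the 2 libraries of a group, and horizontal rules separate the mevalonate arm, squalene to cholesterol, SREBP control, fatty acid synthesis and Stard4. The control LIF/serum mean is the lowest of the 4 groups in 27 of the 30 genes.

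Per kilobase of transcript, Scd2 was the most abundant member in control cells in 2i/LIF, at 11712 normalized counts per kb, followed by Fdps at 6014 and Scd1 at 5584. In control cells in LIF/serum the level per kb was highest for Acly at 3949, Scd2 at 3578 and Fdps at 3028. The lowest level per kb was that of Insig2 in control 2i/LIF, at 274, and that of Hsd17b7 in control LIF/serum, at 116. The order of the levels thus differed between media, with no test made between genes.

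The promoters of 6 members are shown, that of Hmgcs1 for its strict sterol regulatory element and the other 5 for the changes described below. Mvd, Nsdhl and Lss rose in Dax1KO LIF/serum above both 2i/LIF groups, and Insig1 and Hsd17b7 rose there to a level below 2i/LIF. The sequences are from RefSeq on GRCm38.p6 and lie upstream of the gene, at most 200 bases each, on the coding strand 5′ to 3′, outside annotated exons. They span chr13:119690151-119690350 (plus strand) for Hmgcs1, chr5:28071163-28071362 (plus) for Insig1, chr8:122443423-122443622 (minus) for Mvd, chrX:72918412-72918520 (plus) for Nsdhl, chr10:76531388-76531587 (plus) for Lss and chr1:169969242-169969408 (minus) for Hsd17b7. Capitals mark matches on either strand to the sterol regulatory element TCACNCCAC, the NF-Y box CCAAT, the GC box GGGCGG and the E-box CACGTG. A match on the other strand appears as its reverse complement, and overlaps between motifs were allowed.
Hmgcs1: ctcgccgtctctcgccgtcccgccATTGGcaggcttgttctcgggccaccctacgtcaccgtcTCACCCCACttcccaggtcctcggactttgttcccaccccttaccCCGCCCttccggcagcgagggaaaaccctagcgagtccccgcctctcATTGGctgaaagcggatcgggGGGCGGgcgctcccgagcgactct
Insig1: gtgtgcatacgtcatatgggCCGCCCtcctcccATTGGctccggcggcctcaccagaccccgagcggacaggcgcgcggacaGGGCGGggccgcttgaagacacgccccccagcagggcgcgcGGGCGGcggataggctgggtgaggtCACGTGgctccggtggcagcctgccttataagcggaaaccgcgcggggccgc
Mvd: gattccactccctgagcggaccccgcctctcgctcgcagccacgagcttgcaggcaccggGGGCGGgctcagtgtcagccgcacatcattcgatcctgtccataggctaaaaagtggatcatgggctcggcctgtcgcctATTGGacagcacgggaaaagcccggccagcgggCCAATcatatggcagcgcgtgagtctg
Nsdhl: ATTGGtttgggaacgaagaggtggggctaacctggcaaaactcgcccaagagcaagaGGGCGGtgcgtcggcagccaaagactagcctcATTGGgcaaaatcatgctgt
Lss: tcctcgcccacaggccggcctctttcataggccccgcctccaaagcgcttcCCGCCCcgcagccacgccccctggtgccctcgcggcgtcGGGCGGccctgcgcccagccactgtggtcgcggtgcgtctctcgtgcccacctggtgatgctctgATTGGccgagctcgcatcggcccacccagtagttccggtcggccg
Hsd17b7: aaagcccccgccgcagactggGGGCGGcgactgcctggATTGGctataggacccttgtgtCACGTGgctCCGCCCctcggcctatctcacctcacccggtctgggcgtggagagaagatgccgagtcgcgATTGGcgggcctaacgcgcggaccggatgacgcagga

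Promoter windows from 250 bases before to 50 after the start were at hand for 24 of the 30 members, with 32 windows in all. The other 6 members, Fdps, Fdft1, Sqle, Scd1, Scd2 and Stard4, had no window and were not searched for motifs. All 6 were upregulated in the medium comparison in control cells described below, so the shares leave out members with called changes. TCACNCCAC stood in 1 of the 32 windows, that of Hmgcs1 (3.12%), against 1.24% of all 32851 windows. CCAAT stood in 21 of 32 (65.6%, against 37.4% of all), and GGGCGG in 24 of 32 (75.0%, against 35.7%). CACGTG stood in 6 of 32 (18.8%, against 7.15%). These are matches of letters, and no binding was measured.

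In control cells, 2i/LIF was compared with LIF/serum to see how the pathway differed between serum-free and serum culture. Scd1 was 8.70-fold higher in 2i/LIF, Insig1 4.70-fold and Scd2 3.27-fold, and the genes of both SREBPs and of Scap were upregulated with them. From squalene to cholesterol Fdft1, Sqle, Cyp51, Msmo1, Hsd17b7 and Dhcr7 were upregulated. Of the 30 members, 14 were upregulated, and the median of the 30 was 0.50 on the log2 scale, with 27 above 0. Among all genes tested 36.8% were DEGs in this comparison, 20.3% higher and 16.5% lower in 2i/LIF. No member was downregulated by edgeR, by DESeq2, or at an unadjusted P under 0.05. The 2 groups did not overlap in 24 members, each higher in 2i/LIF, against 35.4% of all genes.

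Of the genes of SREBP control 4 of 5 were upregulated in 2i/LIF, and their median was 1.24. Insig1, which retains the Scap complex, stood at 2612 and 2558 normalized counts in control LIF/serum, 5001 and 5218 in Dax1KO LIF/serum, 11311 and 12965 in control 2i/LIF, and 11987 and 14213 in Dax1KO 2i/LIF. All 4 libraries in 2i/LIF exceeded all those in LIF/serum, and the Dax1KO LIF/serum libraries lay apart from the control ones. In the annotation used here (GENCODE on GRCm38) it is ENSMUSG00000045294.11, at chr5:28071363-28078662. The difference between media in control cells was 2.23 ± 0.13 (edgeR adjusted P = 2.66e-05).

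Srebf1, whose product favours fatty acid genes, had 1589 and 1833 normalized counts in control LIF/serum, 2391 and 2272 in Dax1KO LIF/serum, 4587 and 4292 in control 2i/LIF and 4351 and 4681 in Dax1KO 2i/LIF. Srebf2, whose product favours cholesterol genes, had 7620.4 and 6369 in control LIF/serum, 10819 and 11314 in Dax1KO LIF/serum, 15169 and 17873 in control 2i/LIF and 15495 and 17551 in Dax1KO 2i/LIF. Both genes rose in steps without overlap, lowest in control LIF/serum, then Dax1KO LIF/serum, then 2i/LIF, where the genotypes overlapped. The medium difference in control cells was 1.38 ± 0.12 for Srebf1 (edgeR adjusted P = 0.000131) and 1.24 ± 0.14 for Srebf2 (edgeR adjusted P = 0.000369).

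Scap, the escort, stood at 1717 and 1466 normalized counts in control LIF/serum, 2652 and 2354 in Dax1KO LIF/serum, 2438 and 2918 in control 2i/LIF and 2212 and 2357 in Dax1KO 2i/LIF. The control LIF/serum libraries were the lowest, and the Dax1KO LIF/serum libraries overlapped with both 2i/LIF groups. It was upregulated by 0.75 ± 0.14 in 2i/LIF in control cells (edgeR adjusted P = 0.00483). Insig2, the paralog of Insig1, had 615 and 641 in control LIF/serum, 691 and 726 in Dax1KO LIF/serum, 741 and 739 in control 2i/LIF and 631 and 669 in Dax1KO 2i/LIF. Its medium difference in control cells, 0.24 with a 95% interval of -0.07 to 0.55, did not pass the test.

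The fatty acid genes split into desaturases and the rest, with 2 of 6 upregulated. Scd1, a stearoyl-CoA desaturase, stood at 3396 and 2808 normalized counts in control LIF/serum, 6764 and 7286 in Dax1KO LIF/serum, 23226 and 30737 in control 2i/LIF and 23041 and 31209 in Dax1KO 2i/LIF. Scd2, its paralog, stood at 20900.0 and 18137 in control LIF/serum, 26477 and 26993 in Dax1KO LIF/serum, 61552 and 66226 in control 2i/LIF and 47572 and 62798 in Dax1KO 2i/LIF. In both genes the media did not overlap, and the Dax1KO LIF/serum libraries lay above the control ones. The medium difference in control cells was 3.12 ± 0.20 for Scd1 (edgeR adjusted P = 4.41e-05) and 1.71 ± 0.15 for Scd2 (edgeR adjusted P = 0.000136). They are ENSMUSG00000037071.2 (chr19:44394455-44407879) and ENSMUSG00000025203.5 (chr19:44293674-44306864). Scd1 and Scd2 share 11.4% of the Scd2 transcript at an identity of at least 95%.

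The other fatty acid genes did not pass in control cells. Acly, which makes cytosolic acetyl-CoA, differed by 0.27 (95% interval 0.03 to 0.52, edgeR adjusted P = 0.0807), with 16243 to 21148 normalized counts over the control libraries. Fasn, the fatty acid synthase, differed by 0.43 (-0.03 to 0.89), Acaca, the carboxylase that commits acetyl-CoA to fatty acids, by 0.19 (-0.21 to 0.59), and Elovl6, an elongase, by 0.17 (-0.28 to 0.62). A stretch of 64.3% of the Acaca transcript is shared with Gm5182, at 137 counts on average against 5763 for Acaca.

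On the way through squalene to cholesterol, 6 of 11 genes were upregulated in 2i/LIF in control cells. Hsd17b7, a sterol ketone reductase, stood at 604 and 467 normalized counts in control LIF/serum, 1144 and 1035 in Dax1KO LIF/serum, 1469 and 1654 in control 2i/LIF and 1708 and 2025 in Dax1KO 2i/LIF. Dhcr7, which acts at the last step, had 1510 and 2411 in control LIF/serum, 5458 and 5539 in Dax1KO LIF/serum, 5680 and 4246 in control 2i/LIF and 6496 and 7810 in Dax1KO 2i/LIF. The groups of Hsd17b7 formed 4 levels without overlap, while Dax1KO LIF/serum lay within the range of control 2i/LIF for Dhcr7. Their medium differences in control cells were 1.54 ± 0.17 (edgeR adjusted P = 0.000393) and 1.34 ± 0.23 (edgeR adjusted P = 0.0031).

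Cyp51, the lanosterol demethylase, had 4174 and 4054 normalized counts in control LIF/serum, 6054 and 7174 in Dax1KO LIF/serum, 7400 and 9703 in control 2i/LIF and 9258 and 10490 in Dax1KO 2i/LIF. Fdft1, the squalene synthase, had 3547 and 3706 in control LIF/serum, 5054 and 5719 in Dax1KO LIF/serum, 5955 and 6659 in control 2i/LIF and 4535 and 5352 in Dax1KO 2i/LIF. Msmo1, the sterol methyl oxidase, had 3233 and 4513 in control LIF/serum, 7223 and 6864 in Dax1KO LIF/serum, 6758 and 6378 in control 2i/LIF and 6550 and 7014 in Dax1KO 2i/LIF. In each of the 3 genes the control LIF/serum libraries were below the other 6. They rose by 1.06 ± 0.16, 0.80 ± 0.13 and 0.76 ± 0.16 in 2i/LIF in control cells, with edgeR adjusted P values of 0.00147, 0.00219 and 0.00673. Sqle, the squalene epoxidase, rose by 0.66 ± 0.12 (edgeR adjusted P = 0.00436), with its 8 libraries between 3640 and 6281. Lss, Tm7sf2, Nsdhl, Ebp and Sc5d did not pass in control cells, with differences between -0.09 and 0.54.

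In the mevalonate arm 1 of 7 genes was called between media in control cells, and the median was 0.32. Fdps, the farnesyl diphosphate synthase, had 3506 and 4863 normalized counts in control LIF/serum, 5740 and 6632 in Dax1KO LIF/serum, 7672 and 8952 in control 2i/LIF and 6519 and 9302 in Dax1KO 2i/LIF. Control cells did not overlap between media, and the Dax1KO groups did. The difference in control cells was 0.99 ± 0.21 (edgeR adjusted P = 0.00819), and it was lost without control 2i/LIF replicate 2 (edgeR adjusted P = 0.0641). A stretch of 81.6% of the Fdps transcript matches Gm43738, which overlaps it on the same strand and had 9.5 counts on average against 6686 for Fdps, so that reads could be split between them.

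The other 6 genes of the arm gave differences from -0.24 for Idi1 to 0.47 for Pmvk in control cells, and none passed. Hmgcs1, the cytosolic HMG-CoA synthase, differed by 0.32 (95% interval 0.06 to 0.58, edgeR adjusted P = 0.0599). Stard4, the sterol carrier, had 1603 and 1677 normalized counts in control LIF/serum, 3155 and 3774 in Dax1KO LIF/serum, 3436 and 3913 in control 2i/LIF and 4329 and 4999 in Dax1KO 2i/LIF. Its control LIF/serum libraries lay below the others, and its medium difference in control cells was 1.16 ± 0.14 (edgeR adjusted P = 0.000543).

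**Figure D2:**
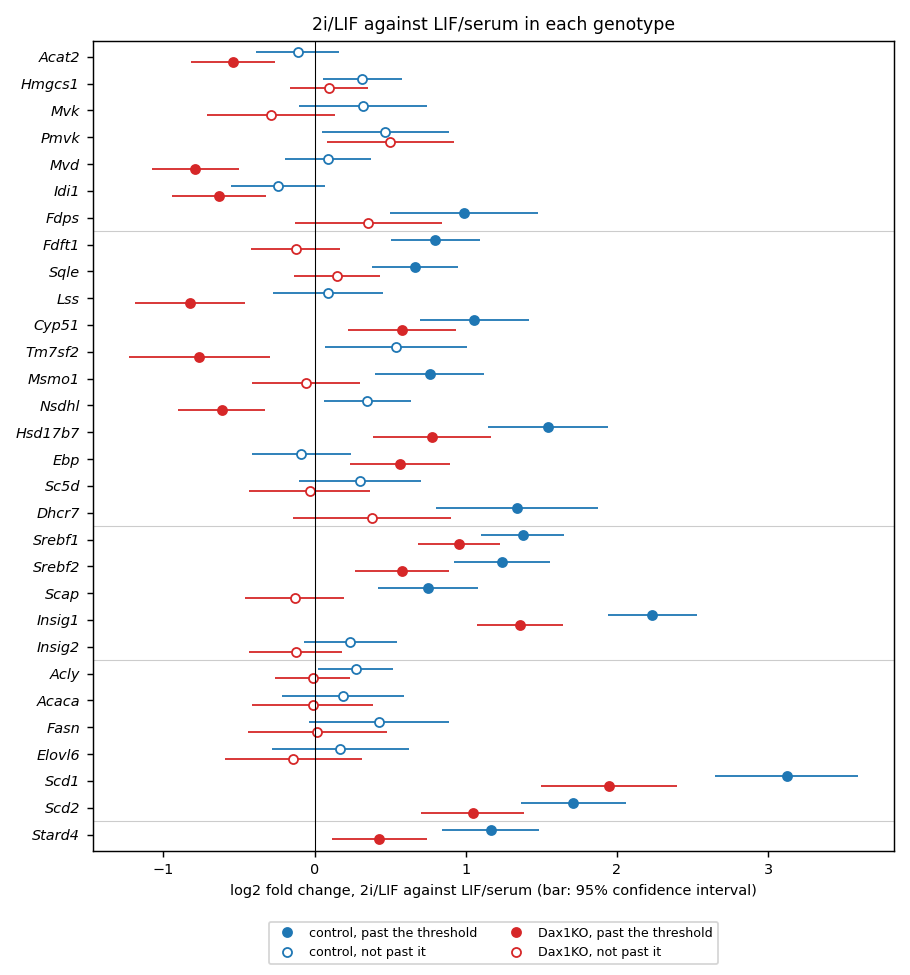
Log2 fold change of each of the 30 genes in 2i/LIF against LIF/serum (x axis), in control cells (blue) and Dax1KO cells (red), with bars for 95% confidence intervals. Filled circles passed the DEG threshold. In control cells 14 genes are filled and all lie right of 0, and in Dax1KO cells 9 filled genes lie right and 6 left of 0.

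In Dax1KO cells the same comparison divided the pathway. The SREBP genes, Insig1 and the desaturases were higher in 2i/LIF. In the mevalonate arm Acat2, Mvd and Idi1 were lower (3 of 7). From squalene to cholesterol Lss, Tm7sf2 and Nsdhl were lower and Cyp51, Hsd17b7 and Ebp higher (3 and 3 of 11). Of the 30 members 9 were upregulated and 6 downregulated, the median was 0.00 and 15 lay above 0. Among all genes tested 28.9% were DEGs here, 15.2% higher and 13.7% lower. The 2 groups did not overlap in 11 members higher and 8 lower in 2i/LIF, against 35.6% and 33.3% of all genes. Without Dax1KO 2i/LIF replicate 2 the members called numbered 7, and without Dax1KO LIF/serum replicate 2 they numbered 9. Mvd, Lss, Srebf1, Insig1, Scd1 and Scd2 were called under all 15 alternatives that refitted the data.

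Among the upregulated genes, Scd1 differed by 1.95 ± 0.19 (edgeR adjusted P = 0.000327), Insig1 by 1.36 ± 0.12 (edgeR adjusted P = 0.000223) and Scd2 by 1.05 ± 0.15 (edgeR adjusted P = 0.00164). Srebf1 differed by 0.95, Hsd17b7 by 0.78, Cyp51 and Srebf2 by 0.58, Ebp by 0.57 and Stard4 by 0.43. The call of Stard4 was lost with RLE factors, without the filter on low counts, and with only the 4 libraries compared, among other alternatives. Ebp, the sterol isomerase, had 1316 and 1565 normalized counts in control LIF/serum, 1051 and 1147 in Dax1KO LIF/serum, 1303 and 1408 in control 2i/LIF and 1522 and 1732 in Dax1KO 2i/LIF. It was the gene of the 30 with its lowest mean in Dax1KO LIF/serum.

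Of the downregulated genes, Lss, the lanosterol synthase, stood at 2990.3 and 3222 normalized counts in control LIF/serum, 6174 and 6622 in Dax1KO LIF/serum, 3295 and 3311 in control 2i/LIF and 4209 and 3021 in Dax1KO 2i/LIF. Mvd, the diphosphomevalonate decarboxylase, stood at 2364 and 2637 in control LIF/serum, 4208 and 4890.0 in Dax1KO LIF/serum, 2596 and 2716 in control 2i/LIF and 2536 and 2738 in Dax1KO 2i/LIF. In both genes the Dax1KO LIF/serum libraries were the highest of the 8, and Mvd hardly varied among the other 6. The medium difference in Dax1KO cells was -0.82 ± 0.16 for Lss (edgeR adjusted P = 0.00646) and -0.79 ± 0.12 for Mvd (edgeR adjusted P = 0.00263).

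Tm7sf2, a sterol reductase, had 309.5 and 310.4 normalized counts in control LIF/serum, 619.9 and 816 in Dax1KO LIF/serum, 466 and 433 in control 2i/LIF and 481 and 366 in Dax1KO 2i/LIF. Nsdhl, a sterol dehydrogenase, had 1908 and 1596 in control LIF/serum, 2931 and 2901 in Dax1KO LIF/serum, 2252 and 2213 in control 2i/LIF and 1838 and 1975 in Dax1KO 2i/LIF. Idi1, the isopentenyl diphosphate isomerase, had 4912 and 4174 in control LIF/serum, 5465 and 5729 in Dax1KO LIF/serum, 4186 and 3495 in control 2i/LIF and 3793 and 3428 in Dax1KO 2i/LIF. In all 3 genes the Dax1KO LIF/serum libraries were the highest of the 8. They fell by 0.76, 0.61 and 0.63 in 2i/LIF, and Acat2, the cytosolic thiolase that opens the route, fell by 0.54. Acat2 is uncertain, since 65.6% of its transcript matches Acat3, which had 4266 counts on average against 3977 for Acat2.

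The medium differences in control and Dax1KO cells come from separate libraries. Across the 30 genes they correlated at 0.854, against 0.696 across all genes tested, and 16 of the 30 had the same sign. Genes are not independent replicates, and this is a description.

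In LIF/serum, Dax1KO cells were compared with control cells. Dhcr7 was 2.81-fold, Tm7sf2 2.32-fold and Scd1 2.26-fold higher in Dax1KO cells, and the SREBP genes, Scap, Insig1 and Stard4 were higher too. In cholesterol synthesis 3 of 7 genes of the mevalonate arm and 8 of 11 from squalene on were upregulated. Of the 30 members 17 were upregulated, 29 lay above 0, and the median was 0.61 on the log2 scale. Among all genes tested 14.7% were DEGs, 8.87% higher and 5.78% lower in Dax1KO cells. No member was downregulated by edgeR or DESeq2, and at an unadjusted P under 0.05 there was 1, Ebp, at -0.39. The 2 groups did not overlap in 27 members that were higher in Dax1KO cells, against 30.3% of all genes. This comparison shares the control LIF/serum libraries with the medium comparison in control cells.

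The call count fell when either Dax1KO LIF/serum library was left out. Such a fit leaves 1 sample in the group, so the fall cannot be told apart from the loss of a replicate. Mvd, Lss, Hsd17b7, Dhcr7, Insig1 and Stard4 were called under all 15 alternatives that refitted the data.

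From squalene to cholesterol, with the values per library given above, the difference in Dax1KO LIF/serum was 1.49 ± 0.23 for Dhcr7 (edgeR adjusted P = 0.00786), 1.21 ± 0.20 for Tm7sf2 (edgeR adjusted P = 0.00966), 1.04 ± 0.16 for Lss (edgeR adjusted P = 0.00698) and 1.02 ± 0.17 for Hsd17b7 (edgeR adjusted P = 0.00939). Msmo1, Nsdhl, Cyp51 and Fdft1 rose by 0.86, 0.73, 0.68 and 0.57. Sqle differed by 0.12 (95% interval -0.17 to 0.40) and Sc5d, a sterol desaturase, by 0.45 (0.05 to 0.86), and neither passed.

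In the mevalonate arm the upregulated genes were Pmvk, Mvd and Mvk. Pmvk, the phosphomevalonate kinase, had 1110 and 1429 normalized counts in control LIF/serum, 2058 and 2719.5 in Dax1KO LIF/serum, 1628 and 1882 in control 2i/LIF and 3205 and 3559.8 in Dax1KO 2i/LIF. It was the member called in Dax1KO against control cells in both media. The difference in LIF/serum was 0.91 ± 0.18 (edgeR adjusted P = 0.017). Mvd rose by 0.86 ± 0.12 (edgeR adjusted P = 0.00581), and Mvk, the mevalonate kinase, by 0.68 ± 0.18 (edgeR adjusted P = 0.0443). The call of Mvk was lost without the filter on low counts, with the replicate number as a block, and with only the 4 libraries compared, among other alternatives. Acat2, Hmgcs1 and Idi1 differed by 0.19 to 0.30 and did not pass, and neither did Fdps at 0.56 (95% interval 0.08 to 1.05).

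SREBP control gave 4 of 5 genes upregulated in Dax1KO LIF/serum. Insig1 rose by 0.98 ± 0.12 (edgeR adjusted P = 0.00395), Srebf2 by 0.66 ± 0.13, Scap by 0.65 ± 0.14 and Srebf1 by 0.45 ± 0.12 (edgeR adjusted P = 0.0414). Stard4 rose by 1.08 ± 0.14 (edgeR adjusted P = 0.00426). Of the fatty acid genes Scd1 alone passed, at 1.18 ± 0.19 (edgeR adjusted P = 0.00865). Scd2 differed by 0.45, Elovl6 by 0.50, Acaca by 0.32, Acly by 0.14 and Fasn by 0.11, and DESeq2 called 2 of the 6 genes.

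**Figure D3:**
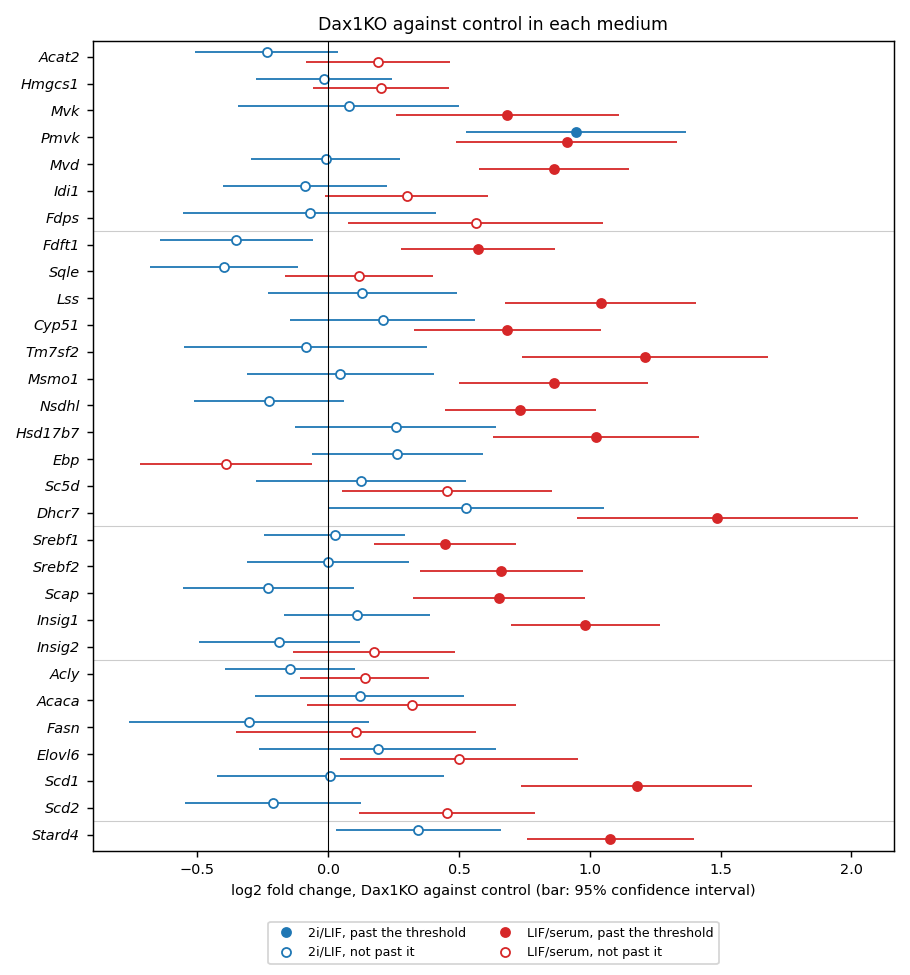
Log2 fold change of each of the 30 genes in Dax1KO against control cells (x axis), in 2i/LIF (blue) and LIF/serum (red), with bars for 95% confidence intervals. Filled circles passed the DEG threshold. In LIF/serum 17 genes are filled and all lie right of 0, and in 2i/LIF Pmvk is the filled gene.

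Markers of another cell type moved with these differences. The summed level of 6 primitive endoderm markers (Gata4, Gata6, Sox17, Sox7, Pdgfra and Dab2) was 5487 and 3916 normalized counts in control LIF/serum, 14567 and 12283 in Dax1KO LIF/serum, and 1057 to 1393 in the 4 libraries in 2i/LIF. Of the 6 markers 5 were upregulated in Dax1KO LIF/serum, and all 6 were lower in 2i/LIF in both genotypes. The summed level of 5 trophectoderm markers was 1588 and 1609 in control LIF/serum, 998 and 1108 in Dax1KO LIF/serum and 2618 to 2966 in 2i/LIF. Most of it was Tfap2c, at 2374 to 2738 in 2i/LIF, while Cdx2 was at 0 in all 4 libraries in 2i/LIF and at 6.70 to 25.4 in LIF/serum. Of 5 fibroblast markers, Col3a1 and Dcn were at no more than 4.01 normalized counts in any library, and the 5 summed to 458 and 486 in control LIF/serum, 1498 and 1434 in Dax1KO LIF/serum and 1208 to 2327 in 2i/LIF. Most of that sum was Thy1, at 1086 to 2189 in 2i/LIF, while Col1a2 was lower in 2i/LIF, at 0 to 6.84 against 23.3 to 53.6 in LIF/serum. The part of other cell types in the results was not tested. In Dax1KO against control cells, the median log2 fold change of the 1054 genes tested on chromosome 6 was 0.44 in 2i/LIF and 0.52 in LIF/serum, against -0.01 and 0.01 over all genes tested. The members lie on other chromosomes, and the part of this difference between the cell lines in the genotype results was not tested.

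**Figure D4:**
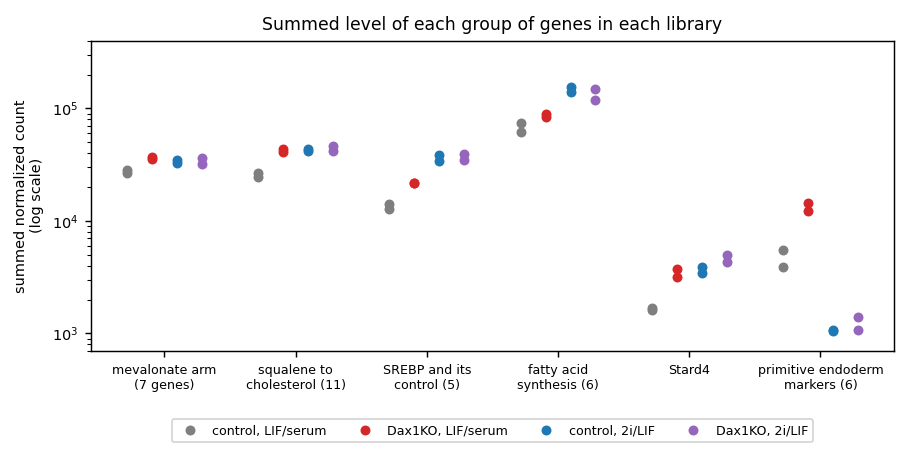
Summed normalized count of each group of genes in each library (y axis, log scale), with the genes per group in brackets and 1 point per library. The SREBP and fatty acid groups separate the media in both genotypes, and the primitive endoderm markers are highest in Dax1KO LIF/serum, at 14567 and 12283.

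In 2i/LIF the Dax1KO and control cells were compared in the same way, and 1 of the 30 members was called. Pmvk was upregulated by 0.95 ± 0.18 (edgeR adjusted P = 0.038), with both Dax1KO libraries above both control libraries. The median of the 30 was 0.00, and among all genes tested 3.16% were DEGs, 1.51% higher and 1.65% lower. The 2 groups did not overlap in 5 members higher and 8 lower in Dax1KO cells, against 25% and 26.8% of all genes. At an unadjusted P under 0.05 there were 3 members higher (Pmvk, Dhcr7 and Stard4) and 2 lower (Sqle and Fdft1). Sqle differed by -0.40 (95% interval -0.68 to -0.11, edgeR adjusted P = 0.138) and Fdft1 by -0.35 (-0.65 to -0.06, edgeR adjusted P = 0.198). Insig1 differed by 0.11 (-0.17 to 0.39), Srebf2 by 0.00 (-0.31 to 0.31) and Scd1 by 0.01 (-0.43 to 0.44). The call of Pmvk was lost without either control 2i/LIF library and without either Dax1KO 2i/LIF library.

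The Dax1KO effect in LIF/serum minus that in 2i/LIF was tested as an interaction, called by the adjusted P alone. It lay above 0 in 28 of the 30 members, with a median of 0.62, and 4 members passed. Among all genes 2.87% passed, 2.05% above 0 and 0.824% below. Nsdhl differed by 0.96 ± 0.18 (edgeR adjusted P = 0.0359), Fdft1 by 0.92 ± 0.18 (edgeR adjusted P = 0.0417), Mvd by 0.87 ± 0.17 (edgeR adjusted P = 0.0432) and Insig1 by 0.87 ± 0.17 (edgeR adjusted P = 0.0424). The members below 0 were Ebp at -0.65 (95% interval -1.12 to -0.19) and Pmvk at -0.03 (-0.63 to 0.56). DESeq2 called 10 members, and at an unadjusted P under 0.05 there were 18 above 0 and 1 below. With any 1 of the 8 libraries left out, 0 or 1 member passed edgeR, with 13 to 19 above 0 at an unadjusted P under 0.05.

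The members differed in where Dax1KO LIF/serum lay relative to 2i/LIF. In Cyp51, Hsd17b7, Srebf1, Srebf2, Insig1, Scd1 and Scd2 both libraries lay above control LIF/serum and below all 4 libraries in 2i/LIF, 7 of 30 members against 8.2% of all genes tested. In Acat2, Mvk, Mvd, Idi1, Lss, Tm7sf2 and Nsdhl both lay above all 4 libraries in 2i/LIF, 7 of 30 members against 24.6% of all genes, so that this position was about as frequent among all genes. The remaining members were in neither position.

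Other genes of lipid metabolism were taken as lists. Their counts are to be read against the shares of all genes given above, which were 20.3% higher and 16.5% lower for the medium in control cells, 15.2% and 13.7% for the medium in Dax1KO cells, and 8.87% and 5.78% for Dax1KO in LIF/serum. Of 14 further lipogenic genes 10 were upregulated in 2i/LIF in control cells, with a median of 0.84, and 6 were upregulated in Dax1KO LIF/serum, with a median of 0.68. Acss2, which makes acetyl-CoA from acetate, had 384 and 523 normalized counts in control LIF/serum, 1264 and 1691 in Dax1KO LIF/serum, 2166 and 2164 in control 2i/LIF and 2527 and 2533 in Dax1KO 2i/LIF. Its 4 groups did not overlap, and it differed by 2.26 between media in control cells and by 1.70 between genotypes in LIF/serum. Fads2, a fatty acid desaturase, differed by 2.13 between media in control cells and by 0.76 between genotypes in LIF/serum. In Dax1KO cells 6 of the 14 were higher in 2i/LIF and 1, Pnpla3, was lower, with a difference of -1.21.

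Targets of LXR, the oxysterol receptor, moved with the medium as well. The list of 7 genes held 5 targets and the receptor genes Nr1h2 and Nr1h3. All 5 targets were upregulated in 2i/LIF in each genotype. Nr1h2 and Nr1h3 differed by -0.26 and -0.77 between media in control cells and did not pass. Mylip, which marks lipoprotein receptors for degradation, had 123 and 130.1 normalized counts in control LIF/serum, 262 and 282 in Dax1KO LIF/serum, 1029 and 1034 in control 2i/LIF and 1175 and 1159 in Dax1KO 2i/LIF. It differed by 3.03 between media in control cells and by 1.10 between genotypes in LIF/serum. The cholesterol exporters Abca1 and Abcg1 differed by 1.96 and 2.01 between media in control cells. Smpdl3a was called as well, but it had at most 3.18 normalized counts in the control LIF/serum libraries, so no fold change is given. Lpcat3 passed in both genotype comparisons and lies on chromosome 6.

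Of 11 genes of lipid uptake and storage 6 were upregulated in 2i/LIF in control cells and 1, Soat1, was downregulated. Lpl, the lipoprotein lipase, differed by 2.41 and Scarb1, a lipoprotein receptor, by 2.08. Soat1, which esterifies cholesterol, differed by -1.49, with 1331 and 1338 normalized counts in control LIF/serum and 392 and 556 in control 2i/LIF. In Dax1KO LIF/serum Lrp8 and Scarb1 were upregulated and Lipa, the lysosomal lipase, was downregulated. In Dax1KO cells 7 were higher and 1 lower in 2i/LIF.

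Of 10 genes of fatty acid oxidation 5 were upregulated in 2i/LIF in control cells and 4 in Dax1KO LIF/serum, and Cpt1a, which brings fatty acids into mitochondria, differed by 1.33 and 0.76 in these comparisons. In Dax1KO cells 2 of the 10 were higher and 1 lower in 2i/LIF, with a median of -0.07. Acadvl, a dehydrogenase of long chains, differed by 1.45 in Dax1KO LIF/serum and by 0.59 in Dax1KO 2i/LIF. The isoprenoid branch, which leaves the mevalonate route before sterols, had 1 of 8 genes higher (Dhdds) and 2 lower (Nus1 and Pdss1) in 2i/LIF in control cells, near the shares of all genes, with a median of -0.35. Among genes of SREBP processing, Faf2 was higher and Rnf145, a ubiquitin ligase for Scap, was lower, by -1.10, in the same comparison. The SREBP proteases Mbtps1 and Mbtps2 differed by 0.06 and 0.10 and did not pass.

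**Figure D5:**
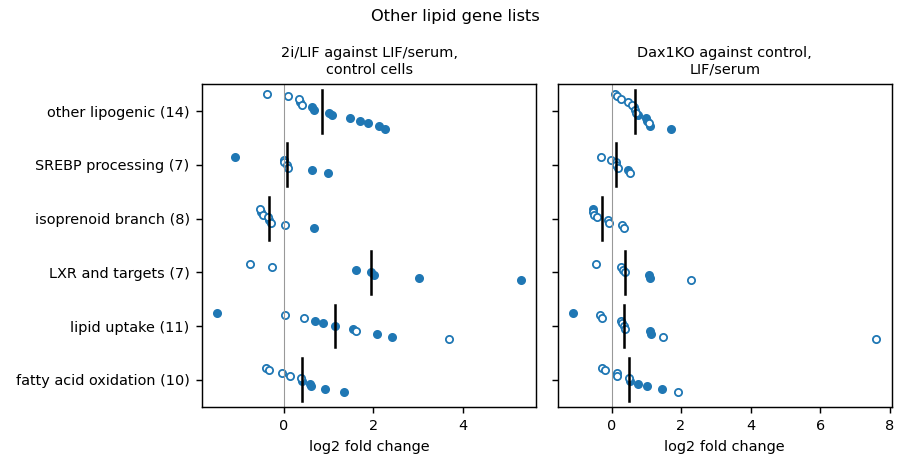
Log2 fold change (x axis) of each tested gene in 6 other lipid gene lists, in 2i/LIF against LIF/serum in control cells (left) and in Dax1KO against control cells in LIF/serum (right), with the genes per list in brackets. Filled circles passed the DEG threshold and black lines are medians. The median of the further lipogenic genes is 0.84 on the left and 0.68 on the right, and the open point far right of lipid uptake is Cd36, which had counts in few libraries.

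Whether strand was used in counting is not stated, and without it the reads of overlapping genes cannot be told apart. Among the members named as DEGs, Mvd overlaps Gm20388, Idi1 overlaps Gm48574, Fdft1 overlaps Ctsb and Lss overlaps 4930483K19Rik on the opposite strand. Cyp51 overlaps Akap9, Srebf1 overlaps Rai1 and Scap overlaps 5830462I19Rik on the opposite strand, and Tm7sf2 overlaps Vps51 on the same strand. Fdft1 also matches Gm6781 over 33.7% of its transcript, with 32.1 counts on average for Gm6781.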

How the data were processed

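mRNA of both genotypes was sequenced from both media on an Illumina HiSeq. The authors deposited raw counts, 1 whole number per gene and library, without normalization. The submitters' notes list HISAT2 2.0.4, DESeq2 and the build mm10, and the counting tool, annotation and use of strand are not given in the sources used here. Low counts piled up at 3 (1348 to 1587 genes a library, against 469 to 515 at 4), so low counts may not be independent fragments. Libraries were assigned to groups from their titles. Symbols and coordinates came from GENCODE M21, which held 52403 of 52550 identifiers, 49035 in the same version.

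Counts were filtered with filterByExpr, scaled by TMM (factors 0.960 to 1.04, normalized counts refer to the mean scaled size) and fitted in edgeR 4.0.16 (R 4.3.3) with a mean per group over the 8 libraries. The biological coefficient of variation was 20.9% and the prior degrees of freedom 4.04. Steps were tested on simulated data. The lowest count of a member was 291, so that counting error was small beside the replicate spread. The replicates of a group were not the same library, with a chi-square of 19.1 to 49.6 per gene. Levels per kilobase used the principal transcript, or the longest protein-coding transcript where none is marked. Transcripts were compared with blastn 2.17.0 at an identity of at least 95% over at least 50 bases.

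The members and the other lists were chosen with earlier results of these data known. All 30 members could be named. Values in each library were given for SREBP control and for the called members with the largest fold changes, up to 12 for a medium comparison and 8 for a genotype comparison or the interaction. Up to 3 called genes were named per other list and comparison. Alternatives were DESeq2 1.42.0, RLE factors, no filter, at least 10 counts in every library, the replicate number as a block, only the 4 libraries compared, thinned counts, a fold change of at least 2 and each library left out. The authors' lists of DEGs were not used here.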

Additional observations from a re-analysis of the deposited data

Results flagged for a closer look

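In 9 genes of these lists the Dax1KO effect differed between media by edgeR's interaction test with Benjamini-Hochberg adjustment over all genes tested, of which 2.87% passed. They were 4 of the 30 members, 4 of 14 further lipogenic genes and 1 of 10 genes of fatty acid oxidation. Of the 4 calls among members, 0 were kept in all alternatives that refitted the data. Among the members the difference of the log2 fold changes, LIF/serum minus 2i/LIF, was 0.962 for Nsdhl, 0.922 for Fdft1, 0.874 for Mvd and 0.873 for Insig1. For each of these 4 the Dax1KO libraries lay above the control libraries in LIF/serum. In 2i/LIF they lay below the control libraries for Nsdhl and Fdft1 and overlapped with them for Mvd and Insig1.

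Among the other lipogenic genes it was 1.48 for Acss2, 0.915 for Aacs, 0.937 for Fads2 and 1.6 for Pnpla3, and in fatty acid oxidation it was 0.863 for Acadvl. Pnpla3, a lipase-like protein of lipid droplets, had 536 and 429 normalized counts in control LIF/serum, 676 and 848 in Dax1KO LIF/serum, 745 and 526 in control 2i/LIF and 360 and 300.1 in Dax1KO 2i/LIF. Acadvl had 661 and 699.7 in control LIF/serum, 1839 and 1894 in Dax1KO LIF/serum, 911 and 888 in control 2i/LIF and 1352 and 1361 in Dax1KO 2i/LIF. No sample could be tested as standing apart within its group, since each group held 2 libraries.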

How the results depend on the processing

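For the medium in control cells the members called kept within 1.5 times their number in every refit, and in the interaction DESeq2, the fit without a filter and each left-out library moved it further. No called member changed sign. A replicate block gave 15 calls for the medium in control cells, 16 for the medium in Dax1KO cells, 1 for Dax1KO in 2i/LIF, 17 for Dax1KO in LIF/serum and 4 for the interaction. Nothing states whether the replicate numbers mark a shared batch. Libraries with the same number deviated from their group means with correlations of -0.015 to 0.108, which does not exclude a weak one. DESeq2 called 10 members in the interaction. Without the filter on low counts edgeR called 0 in the interaction (18 above 0 and 1 below at an unadjusted P under 0.05) and 0 for Dax1KO in 2i/LIF (2 higher and 2 lower at an unadjusted P under 0.05, 1 by DESeq2). Under a minimum of 2-fold the calls were 9 and 3 for the medium in control and Dax1KO cells, 0 for Dax1KO in 2i/LIF and 6 for Dax1KO in LIF/serum. With a library left out they ranged from 13 to 16 and from 7 to 14 for the medium in control and Dax1KO cells, from 0 to 1 for Dax1KO in 2i/LIF, from 6 to 15 for Dax1KO in LIF/serum and from 0 to 1 for the interaction. Leaving out a library leaves 1 sample in a group, which is assumed to vary like the others, and the cause of the other changes was not tested. Of the members called, 13 of 14, 6 of 15, 0 of 1, 6 of 17 and 0 of 4 were called in all alternatives that refitted the data, in the same order. With 2 libraries a group, small differences could not be resolved: the 95% interval of Hmgcs1 in 2i/LIF reached from -0.28 to 0.24.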
